A study of Homo sapiens with 4 samples.

Results

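Endoplasmic reticulum chaperones and the genes of ER-associated degradation (ERAD) were examined in Huh7, a human hepatocellular carcinoma cell line, after transfection with a STYK1 plasmid. The 39 genes were chosen by name from the known folding, sensing, degradation and translocation machinery of the ER. Of these, 36 were measured, among 22395 named genes on the arrays. HSP90B1 and EDEM2 lay only on probe sets that carry a second gene symbol, so no value is given for them, and no probe set is named for SEC61G here. Each of the 36 had exactly 1 named probe set.

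Total RNA came from Huh7 cells that had received either the plasmid pcFLAG (2 control arrays) or pcFLAG-hSTYK1, which carries human STYK1, a receptor-like kinase (2 STYK1 arrays). All 4 samples are of this 1 cell line, and the labels give no time after transfection. Nothing says that samples of 1 group were grown separately, and the spread behind each p-value, which is that between these samples alone, may therefore be technical. The values are log2 signals, so a difference of 1 is a doubling, and within each group replicate 1 is given before replicate 2.

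The ER folds and glycosylates the proteins that a cell secretes, and hepatocytes are among the most secretory cells of the body. Unfolded protein draws the chaperone HSPA5 (BiP) away from the sensors IRE1 (gene ERN1), ATF6 and PERK (gene EIF2AK3). IRE1 then splices XBP1 mRNA, ATF6 is cut to release a transcription factor, and PERK slows translation while ATF4 protein accumulates. Spliced XBP1 and cut ATF6 bind ER stress response elements (ERSE) in promoters and switch on chaperones and ERAD genes. ERAD recognises misfolded glycoproteins, passes them back through the membrane around the ubiquitin ligase HRD1 (gene SYVN1) and its partner SEL1L, and hands them to the proteasome.

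These elements could be read in the genes' own promoters. RefSeq promoter windows of 300 bases (250 before and 50 after the annotated start, build GRCh38.p14) were at hand for 35 of the 39 genes, all but PDIA3, DERL1, DERL3 and SEC24D. ERSE was searched on both strands as CCAAT, any 9 bases, then CCACG, and ERSE-II as ATTGG, any 1 base, then CCACG. The UPRE core TGACGTGG, which spliced XBP1 binds, and TTGCATCA, a composite site of ATF4, were searched likewise. An ERSE match stood in 8 of the 35 genes (22.9%), namely HSPA5, HSP90B1, CALR, CANX, PDIA6, ERO1B, XBP1 and CRELD2, against 25 of all 27305 genes with a window (0.0916%). ERSE-II was found in HERPUD1, SDF2L1 and HYOU1 (8.57%, against 0.0696% of all genes) and the UPRE core in DNAJC10, SSR3 and HYOU1 (8.57%, against 0.927%). In HYOU1 the UPRE match overlaps an ERSE-II match. The ATF4 composite site was found in HERPUD1 alone (2.86%, against 295 of all genes). A match is a description of these letters and not a measured binding site. The motifs were picked as elements already known from ER stress genes, so the shares only describe this list.

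The stretches below show the ERSE of HSPA5 and ERO1B and the ERSE-II of HERPUD1 and SDF2L1, whose signals varied widely between arrays. They are set beside the ERSE of XBP1, CALR and CANX, whose signals varied less, and the UPRE core of SSR3. In SSR3 both STYK1 arrays lay above both controls, as in 17.4% of all probe sets. In DNAJC10 and HYOU1, which also hold the UPRE core, the groups overlapped. The genes printed were picked with their values known. All stretches lie upstream of the annotated start, run 5′ to 3′ on the gene's strand, and carry the fixed letters of the motif, or of its reverse complement, in capitals. In the order printed they lie at chr9:125241376-125241424 (minus strand), chr1:236282168-236282208 (minus), chr16:56932010-56932050 (plus), chr22:21642099-21642139 (plus), chr22:28800588-28800636 (minus), chr19:12938369-12938417 (plus), chr5:179698763-179698811 (plus) and chr3:156554144-156554181 (minus).
HSPA5: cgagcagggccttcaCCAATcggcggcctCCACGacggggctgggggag
ERO1B: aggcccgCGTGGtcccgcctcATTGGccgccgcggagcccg
HERPUD1: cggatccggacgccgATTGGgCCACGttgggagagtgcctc
SDF2L1: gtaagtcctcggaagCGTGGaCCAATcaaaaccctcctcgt
XBP1: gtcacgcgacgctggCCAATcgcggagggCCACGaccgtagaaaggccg
CALR: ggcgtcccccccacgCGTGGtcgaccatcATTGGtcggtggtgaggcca
CANX: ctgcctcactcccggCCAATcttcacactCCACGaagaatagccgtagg
SSR3: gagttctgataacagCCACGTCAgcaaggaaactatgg

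The arrays themselves were alike. Their medians lay between 0.615 and 0.629 and their pairwise Pearson correlations over all probe sets between 0.985 and 0.987. A floor for signal above background, set at the 95th percentile of 432 probe sets for olfactory receptors, lay between 0.726 and 0.780. STYK1 read 0.26 and 0.61 in control cells against 7.40 and 7.86 in STYK1 cells, at least 118-fold higher against the floor (limma, adjusted p = 0.0373). Its call was lost without any 1 array, as given with the alternatives. All 18 measured hepatocyte and hepatoma markers lay above the floor, against 1 of 8 markers of fibroblasts and stellate cells, 1 of 7 of endothelial cells, 5 of 9 of immune cells and 4 of 6 of cholangiocytes.

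Between STYK1 and control cells, no ER gene passed the test. Of the 36 genes, 26 (72.2%) were higher and 10 lower in the mean of the STYK1 arrays, where 50.8% of all named genes were higher. The median difference was 0.09, against 0.002 over all named genes. Differences ran from −0.40 for EDEM3 to 0.37 for SSR3, and 0 of 36 passed at an adjusted p under 0.05 (limma), as did 0.00187% of all 53617 probe sets. At an unadjusted p under 0.05 limma had 1 higher, SSR3, and 1 lower, EDEM3, against 2.73% of all probe sets higher and 1.91% lower. Both STYK1 arrays lay above both controls for 5 genes (13.9%, against 17.4% of all probe sets) and below them for 1 (2.78%, against 15.4%). The counts past a p and those above both controls are thus near or under the background share. Array signals are relative to the RNA of the whole sample, so fewer cells that make a transcript and less of it per cell cannot be told apart.

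What the ER genes shared was a gap inside each group. STYK1 replicate 1 was the highest of the 4 arrays for 30 of 36 genes (83.3%), where it was the highest for 30.1% of the 11332 named genes above the floor and for 31.4% of the 1907 with a mean signal above 5. Control replicate 1 was the lowest for 18 (against 27.6% of genes above the floor) and STYK1 replicate 2 for 13 (36.1%, against 27.1%). For 27 genes (75.0%, against 30.7%) control replicate 2 exceeded control replicate 1 and STYK1 replicate 1 exceeded STYK1 replicate 2. The reverse order in both groups held for 2 genes (5.56%, against 23.7%). Which order to count was chosen with these values known, so the share only describes them. The median gap was 0.18 within the controls and 0.30 within the STYK1 arrays, where it was 0.01 and 0.03 over genes above the floor. For 32 genes (88.9%) the larger of these gaps exceeded the difference between the group means, as it did for 78.1% of genes above the floor. These counts describe the arrays and were not tested, since each gap rests on 1 array against 1.

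**Figure D1:**
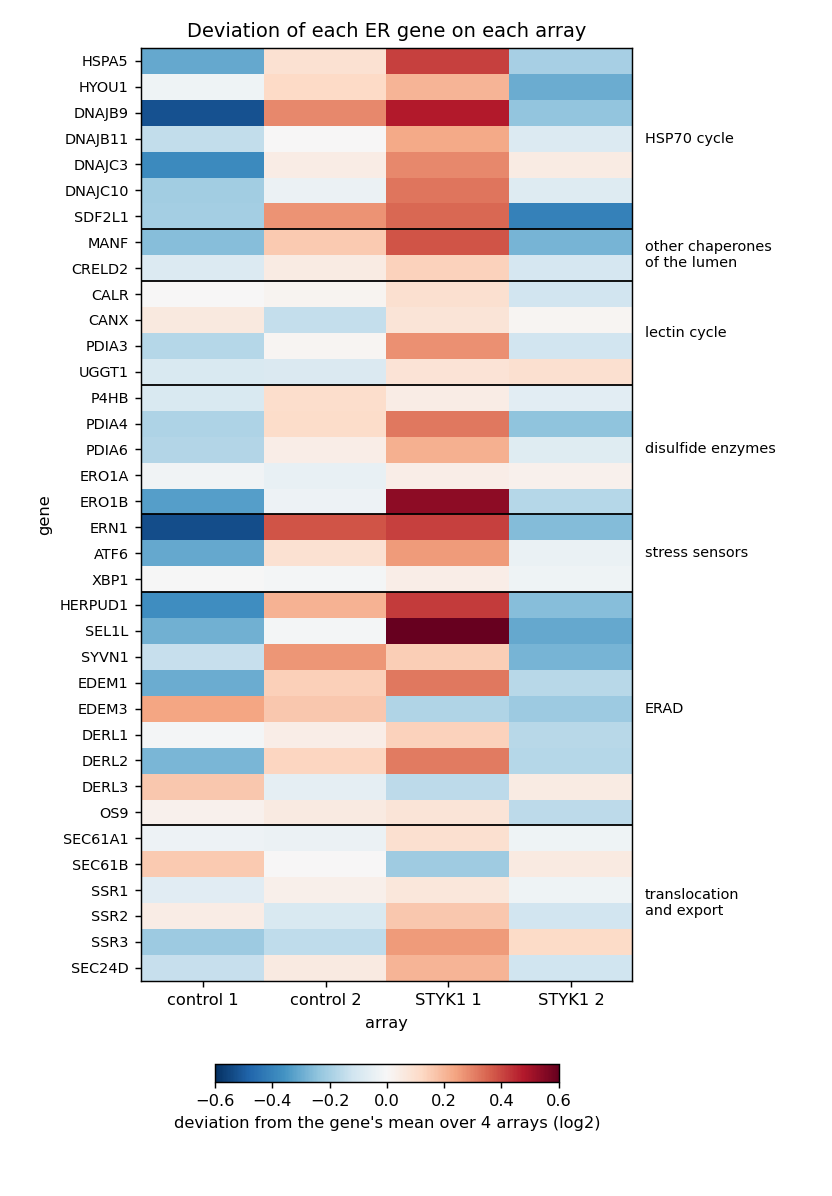
Deviation of the 36 measured ER genes from each gene's own mean over the 4 arrays (log2, colour), with arrays in columns and genes in rows, grouped by role. STYK1 replicate 1 is the highest array for 30 genes and control replicate 1 the lowest for 18, and the strongest colours belong to SEL1L, ERO1B, DNAJB9 and ERN1.

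The sign of the median difference turned with 1 array. Without STYK1 replicate 1 the median was −0.08, with 9 genes higher and 27 lower. Without STYK1 replicate 2 it was 0.26, with 33 higher and 3 lower. The controls moved it as well, to −0.01 without control replicate 1 (17 higher, 19 lower) and to 0.18 without control replicate 2 (27 higher, 9 lower). With each array centred on the median of its probe sets above the floor, the median was 0.04, with 23 higher and 13 lower.

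The HSP70 cycle showed the pattern in every measured gene. HSPA5, the HSP70 of the ER lumen, read 9.09 and 9.48 in control cells against 9.80 and 9.19 in STYK1 cells. Control replicate 2 lay 1.32-fold above control replicate 1, STYK1 replicate 1 lay 1.52-fold above STYK1 replicate 2, and the groups overlapped. The group means of 9.28 ± 0.28 and 9.50 ± 0.43 (SD, n = 2) differed by 0.21, with a standard error of 0.25 and a 95% interval of −0.44 to 0.87 (limma, adjusted p = 0.986).

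Its J-domain partners deliver clients to HSPA5 and trigger its ATPase. DNAJB9 (ERdj4), which also binds the sensor IRE1, read 3.08 and 3.89 in control cells against 4.08 and 3.36 in STYK1 cells, gaps of 1.75-fold and 1.64-fold. DNAJB11 (ERdj3), which binds unfolded chains early, read 6.17 and 6.33 against 6.55 and 6.24. DNAJC10 (ERdj5), a reductase that opens disulfides before degradation, read 6.91 and 7.09 against 7.44 and 7.05. In these 3 genes the groups overlapped, with STYK1 replicate 1 highest and control replicate 1 lowest.

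DNAJC3 (p58IPK), a J-domain co-chaperone in the lumen, was the only gene of this role whose groups did not overlap. It read 6.14 and 6.56 in control cells against 6.81 and 6.57 in STYK1 cells, 0.34 higher with STYK1 (standard error 0.18, limma adjusted p = 0.979). Control replicate 2 and STYK1 replicate 2 were nearly level, so the separation is narrow. Without STYK1 replicate 1 the difference was 0.22, and without control replicate 1 it was 0.13.

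SDF2L1, a partner of DNAJB11, was spread widely within both groups, at 6.23 and 6.71 in control cells against 6.78 and 6.03 in STYK1 cells. Its mean difference of −0.06 lay near 0 while the STYK1 arrays stood 1.68-fold apart. HYOU1 (GRP170), the nucleotide exchange factor of HSPA5, differed by −0.09, with a gap of 0.50 within the STYK1 arrays. MANF, a lumenal protein that binds HSPA5 and can be secreted, read 4.51 and 4.92 against 5.14 and 4.48. CRELD2, a stress-induced disulfide isomerase-like protein, read 2.46 and 2.59 against 2.68 and 2.44. For HYOU1, SDF2L1, MANF and CRELD2 STYK1 replicate 2 was the lowest array and STYK1 replicate 1 the highest, so the STYK1 pair spanned both controls.

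**Figure D2:**
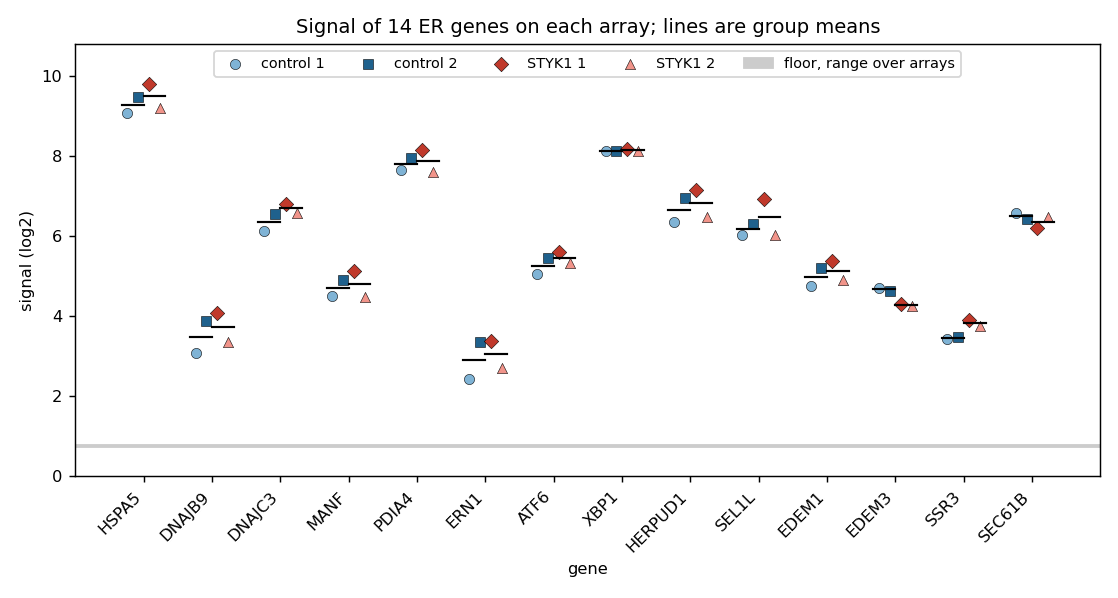
Signal (log2) of 14 ER genes on the 4 arrays, with 1 marker per array, short lines for the group means and a grey band for the floor of 0.726 to 0.780. In HSPA5, DNAJB9, MANF, PDIA4, ERN1, HERPUD1 and EDEM1 the controls and the STYK1 arrays interleave, while XBP1 is level and EDEM3 and SSR3 separate by group.

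The lectin cycle, which holds glycoproteins in the ER until they fold, varied less. CALR (calreticulin), its soluble lectin, read 10.08 and 10.09 in control cells against 10.18 and 9.97 in STYK1 cells. CANX (calnexin), the membrane-bound lectin, read 8.48 and 8.28 against 8.50 and 8.44, and its lowest array was control replicate 2. UGGT1, which marks incompletely folded glycoproteins with glucose for another round, read 6.63 and 6.64 against 6.81 and 6.82. The groups did not overlap, and the gap between replicates was smaller than the difference between the groups in both. The SDs of UGGT1 were 0.004 in control cells and 0.010 in STYK1 cells (n = 2). The difference of 0.18 had a standard error of 0.08 and a 95% interval of −0.04 to 0.40 (limma, adjusted p = 0.979). That standard error draws on the spread of all probe sets as well as on that of UGGT1. PDIA3 (ERp57), the disulfide isomerase that works with both lectins, read 0.46 and 0.64 against 0.90 and 0.52 on its named probe set, above the floor on STYK1 replicate 1 only.

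Disulfide enzymes put cysteine bridges into new proteins, and ERO1 reoxidises them. PDIA4 (ERp72) read 7.65 and 7.94 in control cells against 8.15 and 7.59 in STYK1 cells, and PDIA6 (P5) read 5.75 and 5.96 against 6.13 and 5.85. Both had overlapping groups, with STYK1 replicate 1 highest. P4HB, protein disulfide isomerase itself, read 1.61 and 1.80 against 1.74 and 1.64, a difference of −0.01. The signals of P4HB and PDIA3 rest on their named probe sets alone, so a low signal need not mean low expression.

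The ERO1 oxidases parted from each other. ERO1A, the widely expressed oxidase, read 5.16 and 5.14 in control cells against 5.22 and 5.21 in STYK1 cells, so its groups did not overlap but differed by only 0.07 (limma, adjusted p = 0.987). ERO1B, the form known from secretory tissues such as pancreas, read 1.36 and 1.66 against 2.23 and 1.52, with STYK1 replicate 1 alone standing high. Its difference of 0.36 had a standard error of 0.26 and a 95% interval of −0.33 to 1.05 (limma, adjusted p = 0.979).

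Among the sensors, ERN1 (IRE1) had the widest gap within the controls of all 36 genes. It read 2.44 and 3.35 in the controls, 1.88-fold apart, and 3.38 and 2.71 in the STYK1 arrays. ATF6 read 5.05 and 5.45 against 5.61 and 5.32, with control replicate 1 lowest. XBP1 stayed level over the 4 arrays, at 8.14 and 8.13 against 8.18 and 8.12, a difference of 0.02 with a 95% interval of −0.21 to 0.24. The probe set does not tell spliced from unspliced XBP1 mRNA as far as the table shows, so IRE1 activity cannot be read from it. PERK, EIF2AK3, which was listed beside the 36 genes, read 3.12 and 3.58 against 3.86 and 3.44, the same order of arrays as in HSPA5.

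**Figure D3:**
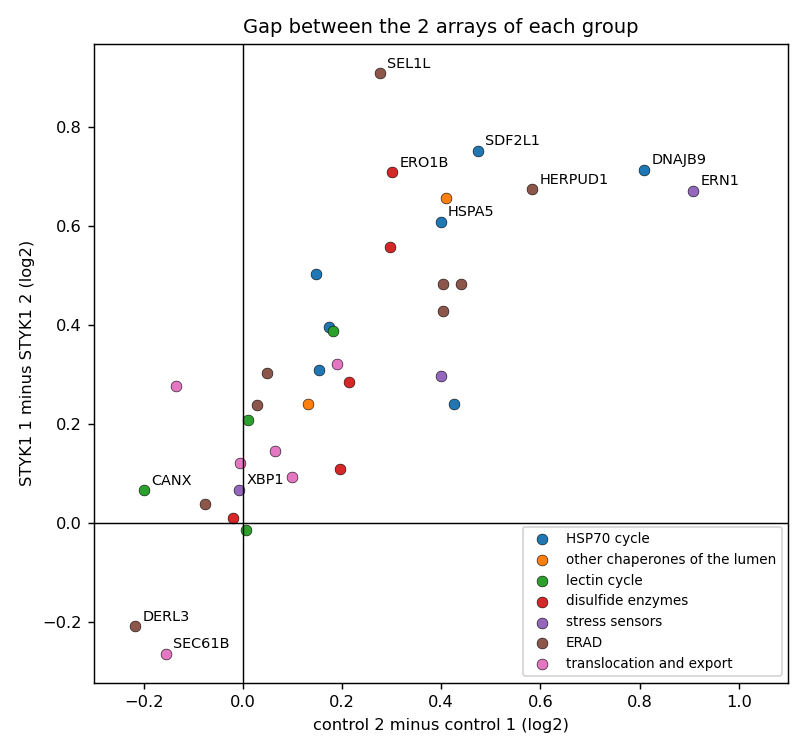
Gap between control replicate 2 and control replicate 1 (x axis, log2) against the gap between STYK1 replicate 1 and STYK1 replicate 2 (y axis, log2) for the 36 genes, coloured by role. Of the 36 points, 27 lie above and right of 0 and 2, DERL3 and SEC61B, below and left of it.

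ERAD genes held the widest gap within the STYK1 arrays and the lowest difference between the groups. SEL1L, the scaffold of the HRD1 ligase, read 6.04 and 6.31 in control cells against 6.93 and 6.02 in STYK1 cells, where the replicates stood 1.88-fold apart. HERPUD1, a ubiquitin-like membrane protein of the same complex, read 6.36 and 6.94 against 7.16 and 6.48. SYVN1 (HRD1) read 1.53 and 1.93 against 1.81 and 1.38. In SEL1L and SYVN1 STYK1 replicate 2 was the lowest array, in HERPUD1 control replicate 1.

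The EDEM proteins trim mannose from misfolded glycoproteins, and their genes went separate ways. EDEM1 read 4.76 and 5.21 in control cells against 5.38 and 4.90 in STYK1 cells, as HERPUD1 did in the order of arrays. EDEM3 read 4.71 and 4.63 in control cells against 4.30 and 4.26 in STYK1 cells, lower on both. Its means of 4.67 ± 0.05 and 4.28 ± 0.03 (SD, n = 2) differed by −0.40, with a standard error of 0.09 and a 95% interval for this gene alone of −0.63 to −0.17. Adjusted over all probe sets it did not pass (limma, adjusted p = 0.979), and its difference lay between −0.43 and −0.36 when any 1 array was left out.

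Derlins form part of the channel through which ERAD clients leave. DERL3, the stress-induced derlin, read 0.78 and 0.56 in control cells against 0.46 and 0.67 in STYK1 cells, above the floor on control replicate 1 only. DERL1 and DERL2 differed by −0.03 and 0.14 and both had STYK1 replicate 1 highest. OS9, the lectin that brings trimmed glycoproteins to SEL1L, differed by −0.08.

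Genes of translocation and export showed both gaps in 3 of 6 and held the highest difference between the groups. SSR3, a subunit of the translocon-associated TRAP complex, read 3.43 and 3.49 in control cells against 3.90 and 3.76 in STYK1 cells, both above both controls. Its means of 3.46 ± 0.05 and 3.83 ± 0.10 (SD, n = 2) differed by 0.37, with a standard error of 0.10 and a 95% interval for this gene alone of 0.11 to 0.63. It did not pass over all probe sets (limma, adjusted p = 0.979), and its difference lay between 0.30 and 0.44 when any 1 array was left out. The unadjusted limma p of 0.0145 became 0.0699 without control replicate 1 and 0.0666 without STYK1 replicate 1. Of the other TRAP subunits, SSR1 and SSR2 differed by 0.04 and 0.05, and SSR4, listed beside the 36 genes, by 0.17. All had overlapping groups.

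SEC61A1, the pore of the translocon, read 8.37 and 8.36 in control cells against 8.50 and 8.37 in STYK1 cells. Its groups did not overlap, by the small margin of STYK1 replicate 2. SEC61B, a small subunit of the same channel, ran against most of the genes, at 6.58 and 6.43 against 6.21 and 6.48, with STYK1 replicate 1 lowest. SEC24D, a cargo adaptor of the COPII coat that buds vesicles from the ER, read 5.30 and 5.49 against 5.64 and 5.32.

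**Figure D4:**
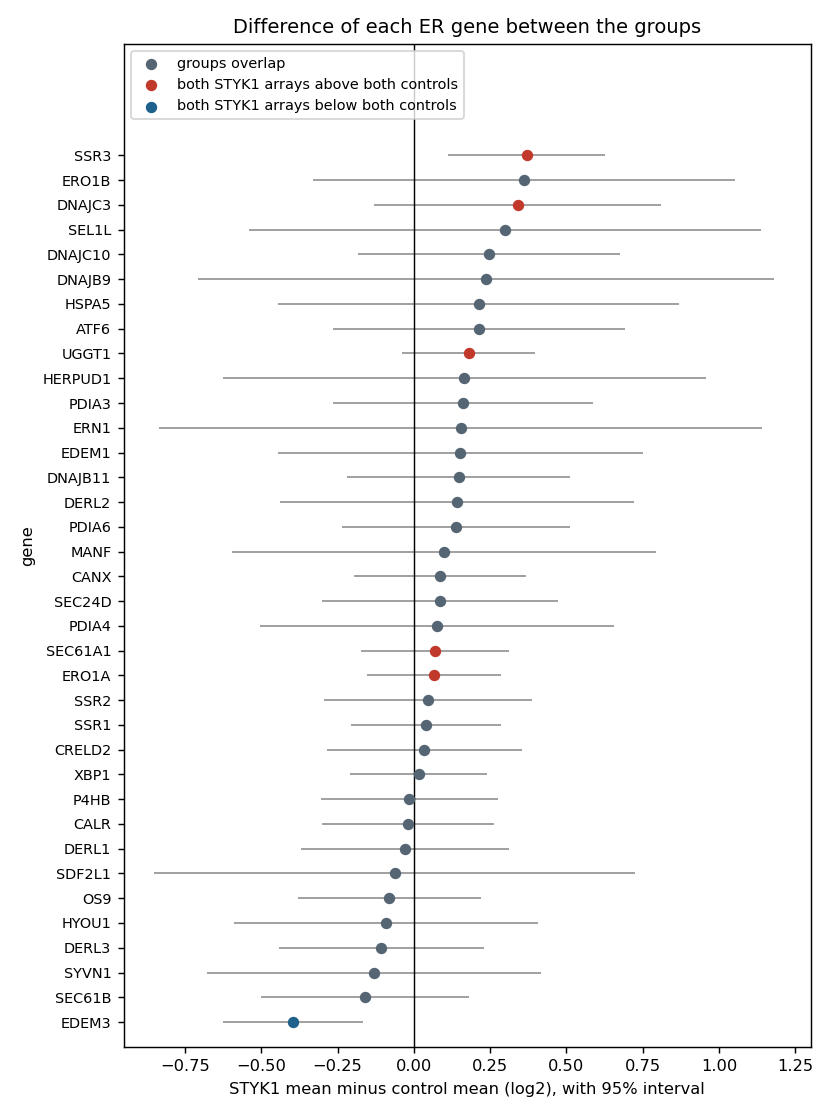
Mean of the STYK1 arrays minus mean of the controls (log2) for each measured ER gene, with its 95% interval from limma, not adjusted for the number of genes. Intervals of EDEM3 (−0.63 to −0.17) and SSR3 (0.11 to 0.63) leave out 0, and the median half-width over the 36 genes is 0.38.

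Gaps were seen both in genes with an ERSE or ERSE-II match in the window and in genes without one, and the 2 sets were compared as a description. Over the 10 measured genes with a match the median gap was 0.18 within the controls and 0.39 within the STYK1 arrays, and over the 22 with a window but no match it was 0.19 and 0.29. The median difference between the groups was 0.06 and 0.12. All 10 with a match and 20 of the 22 without were higher in STYK1 replicate 1 than in STYK1 replicate 2. Among the printed genes with an ERSE, the gap within the STYK1 arrays was 0.07 for XBP1, 0.07 for CANX, 0.21 for CALR, 0.61 for HSPA5 and 0.71 for ERO1B. The gap within the controls was −0.01, −0.20, 0.01, 0.40 and 0.30 in the same order. The printed genes were chosen after their values were seen. For PDIA6 and CRELD2, whose ERSE are not printed, the gaps were 0.28 and 0.24 within the STYK1 arrays and 0.21 and 0.13 within the controls.

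Other ER genes were listed beside the 36, and the lists were not tested against each other. Of all genes above the floor, 51.8% were higher in the mean of the STYK1 arrays. Of 35 further folding factors, 23 were higher and 12 lower, 0 passed at an adjusted p under 0.05 (limma) and 3 were higher and 0 lower at an unadjusted p under 0.05, against 2.73% of all probe sets higher and 1.91% lower. These were the thioredoxin-like TMX3 at 0.51, the peroxidase GPX8 at 0.32, which lay under the floor on all 4 arrays, and the prolyl isomerase FKBP14 at 0.29. Of 26 further ERAD genes 14 were higher and 12 lower, with BCAP31, a membrane chaperone, at −0.30 and HERPUD2 at −0.29 the only ones at an unadjusted p under 0.05. Of 28 further translocon, signal peptidase and glycosyltransferase genes 21 were higher, and SPCS2, a signal peptidase subunit, had the largest difference at 0.55 (limma, adjusted p = 0.979). Of 25 further COPII and retrieval genes 16 were higher and 0 had an unadjusted p under 0.05, with SEC24B at 0.28, the KDEL receptor KDELR1 at −0.19 and SEC13 at −0.23 nearest to it. Of 13 further genes of sensing 7 were lower and the others higher, except ERN2, whose group means were equal. Among them NFYA, NFYB and NFYC, subunits of the factor that binds the CCAAT part of ERSE, differed by −0.20, 0.21 and −0.13. The ATF6 proteases MBTPS1 and MBTPS2 differed by −0.14 and 0.17.

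**Figure D5:**
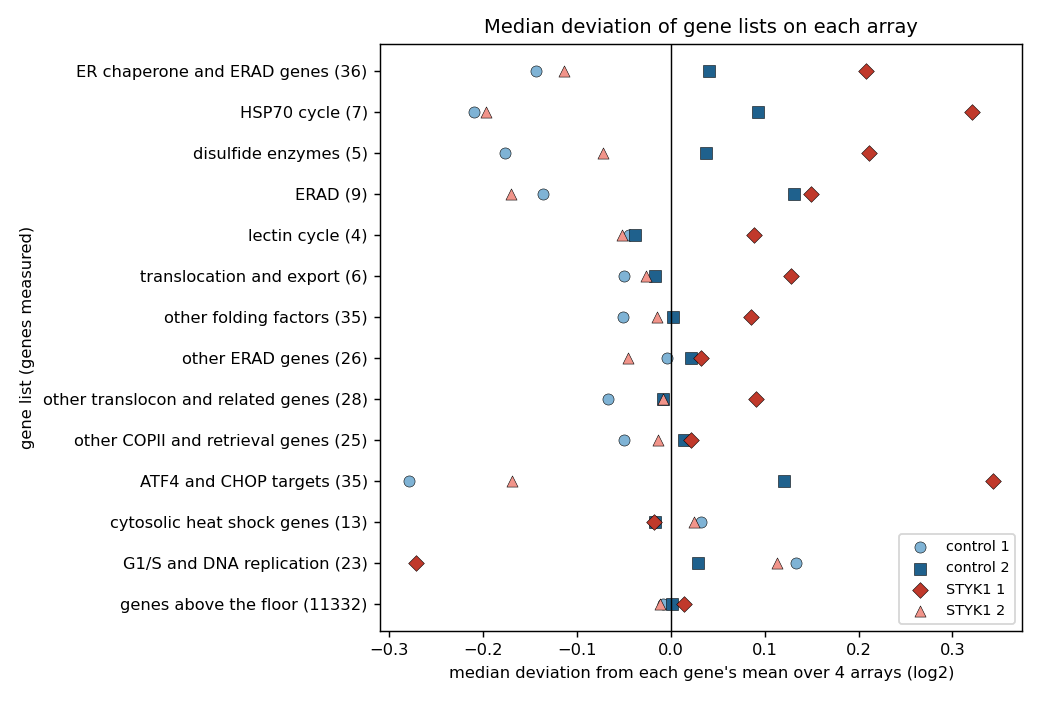
Median deviation of gene lists from the 4-array mean of each gene (x axis, log2), with 1 marker per array and the number of genes measured in brackets. ER chaperone and ERAD genes and ATF4 and CHOP targets spread in the same order of arrays, while the medians of cytosolic heat shock genes and of the 11332 genes above the floor lie near 0.

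In those lists the gap between replicates was narrower. The median gap within the STYK1 arrays was 0.10 for the folding factors, 0.11 for the ERAD genes, 0.12 for the translocon list and 0.05 for the COPII list. STYK1 replicate 1 was the highest array for 17 of 35, 11 of 26, 16 of 28 and 10 of 25 of them in that order. Both gaps ran as in most of the 36 ER genes for 57.1%, 34.6%, 46.4% and 48.0% of them, against 30.7% of genes above the floor.

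Targets of ATF4 and CHOP, transcription factors of the PERK branch, were spread over the arrays in the same order, with wider median gaps. Of the 35 measured, 28 (80.0%) were higher and 7 lower, where 51.8% of genes above the floor were higher. At an adjusted p under 0.05, 0 passed (limma). At an unadjusted p under 0.05, 2 were higher and 0 lower, where 2.73% of all probe sets were higher and 1.91% lower. In this list STYK1 replicate 1 was the highest array for 28, and the median gap was 0.43 within the controls and 0.50 within the STYK1 arrays. Both gaps ran as in most of the ER genes for 32 of the 35 (91.4%), a larger share than the 75.0% of the ER genes. Their median deviation was −0.28 and 0.12 in control cells against 0.34 and −0.17 in STYK1 cells, where that of the 36 ER genes was −0.14 and 0.04, then 0.21 and −0.11. ATF4 itself read 7.14 and 7.01 against 7.13 and 6.94, and DDIT3 (CHOP) read 2.24 and 2.78 against 2.92 and 1.77. PPP1R15A, which recruits a phosphatase to eIF2alpha and is a target of this branch, read 1.48 and 1.88 against 2.48 and 2.28 (difference 0.70; limma, adjusted p = 0.979). XPOT, a tRNA exporter, read 7.19 and 7.41 against 7.76 and 7.36, and the secreted STC2 differed by 0.33. The part that this list plays in the values of the ER genes was not tested.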

How the data were processed

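Per the labels' protocols, RNA was amplified, copied into cDNA, labelled with biotin and hybridised to whole-transcript arrays from Affymetrix. The authors deposited log2 signals for 53617 probe sets on 4 arrays, made with the Transcriptome Analysis Console per the submitters' processing notes; no source used here gives its settings. Base 2 was inferred: as natural logarithms the largest values would exceed the 65535 of a 16-bit scanner. Of the probe sets, 23871 had 1 gene symbol in the platform annotation, 1842 several and 27904 none; 22569 were matched by Entrez ID to RefSeq (GRCh38.p14), which updated 90 symbols. For a gene with several, the probe set of highest mean was used.

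The groups were tested in limma 3.58.1 under R 4.3.3 by lmFit and eBayes (two-sided), and all probe sets entered the Benjamini-Hochberg adjustment. Standard errors and intervals use the spread from eBayes, which draws each gene's own spread towards that of all probe sets. A trial on simulated data came first. Its planted changes were larger than any difference of an ER gene given here, so it did not test differences of that size. With 2 arrays in each group the smallest exact permutation p is 0.333, and no such test was used. Precision is limited by the number of arrays: a difference had a median standard error of 0.11. Genes described array by array were the 3 with the smallest p in each role and 20 known markers. From other lists the 3 with the smallest p were named, and some others such as MBTPS1 and NFYC. The 36 genes, lists, motifs and the floor were chosen with earlier results of these data known. Alternatives were a variance trend, a filter at the floor, quantile and median scaling, the choice of probe set, the replicate number as a block and leaving out each array.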

Additional observations from a re-analysis of the deposited data

How the results depend on the processing

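No ER gene passed at an adjusted p under 0.05 in any of the 11 alternatives run (limma). The STYK1 difference kept its direction, at 7.19 with the replicate block, where its adjusted p was 0.0637 and 0 probe sets passed, and at 6.96 to 7.42 when 1 array was left out, where 0 probe sets passed each time (lowest 0, highest 0). Its adjusted p ran from 0.000293 to 0.724 over the alternatives. The numbers shared by the groups are not said to mark a shared culture, and over all probe sets the deviations of arrays with the same number had a correlation of −0.044; with the block the ER genes kept 1 higher and 1 lower at an unadjusted p under 0.05. With a variance trend 0 ER genes were higher at an unadjusted p under 0.05, and leaving out 1 array gave 0 to 4; the cause was not tested. With the trend, 2513 of all 53617 probe sets had an unadjusted p under 0.05 in either direction (limma). With the replicate block, 2231 of all 53617 probe sets did (limma). Leaving out 1 array assumes that the array left alone varies as the other group does. The counts of ER genes from those fits were not set against a share of all probe sets. No excess over the background is therefore read from them. The sign of the difference turned for 17 of the 36 genes without STYK1 replicate 1, 7 without STYK1 replicate 2, 11 without control replicate 1 and 5 without control replicate 2, against 3 under median centring and 2 under quantile scaling. Averaging probe sets per gene altered no ER gene, since each had 1. PDIA3 and DERL3 had means under the floor, and the filter left 34 genes.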

Other observations

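Cytosolic heat shock genes, which answer unfolded protein outside the ER, had median deviations between −0.02 and 0.03 on the 4 arrays, but single genes were spread more widely. DNAJA1, HSPH1 and HSF1 are named here after their values were seen. DNAJA1 and HSPH1 were lower in STYK1 replicate 1 than in STYK1 replicate 2, with gaps of −0.52 and −0.50, while the gap of HSF1 was 0.40. Of 13 measured, 6 were higher and 7 lower in the STYK1 arrays, the median gap was −0.03 within the controls and −0.02 within the STYK1 arrays, and STYK1 replicate 1 was the highest array for 3. HSP90AB1, a cytosolic HSP90, read 8.48 and 8.43 in control cells against 8.37 and 8.26 in STYK1 cells.

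Genes that act at G1/S and in DNA replication were low on STYK1 replicate 1, where the ER genes were mostly high. It was the lowest array for 19 of 23 (82.6%, against 22.9% of genes above the floor) and the highest for 30 of the 36 ER genes. Of the 23, 6 (26.1%) were higher and 17 lower in the STYK1 arrays, where 51.8% of genes above the floor were higher. At an adjusted p under 0.05, 0 passed (limma). At an unadjusted p under 0.05, 1 was lower, E2F1, against 1.91% of all probe sets lower. Their part in the values of the ER genes was not tested. Their median deviation there was −0.27, against 0.11 in STYK1 replicate 2, and E2F1 read 4.15 and 4.15 in control cells against 3.55 and 3.89 in STYK1 cells. Of 21 interferon-stimulated genes 13 were higher and 8 lower, 8 lay above the floor and IFIT3 differed by 0.26, with a median gap of 0.08 within the STYK1 arrays. Hepatocyte and hepatoma markers had median deviations between −0.02 and 0.02 on the 4 arrays.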
